A study of Mus musculus with 8 samples.

Results

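The metallothionein genes Mt1 and Mt2 and 5 genes known to respond to glucocorticoids, Zbtb16, Fkbp5, Tsc22d3, Sgk1 and Cdkn1a, were followed over 4 mouse hearts in cardiac Purkinje cells and ventricular myocytes. The 7 genes were chosen by name, with their signals on these same arrays in view, and the question put to them was how far their level differs between hearts and between cell types. Every probe set annotated to a member and to no other gene was taken, which gave 16 of the 45101 probe sets on the array and 7 of 18193 named genes. Because the choice used these signals, and among them the spread between hearts, the values of the members are given as a description with no test. Of the 16 probe sets, 15 had a mean log2 signal above the limit used for testing (the 40th percentile of all probe sets, a signal of 19.9), and the remaining Fkbp5 probe set, 1447736_at, lay below it.

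The study compared gene expression in the cells of the heart's fast conduction network with that in the working muscle of the ventricle. Purkinje cells and ventricular myocytes were sorted by flow cytometry after enzymatic digestion of perfused hearts from adult male mice, with 4 arrays per cell type. All animals carried Cntn2-EGFP, a-MHC-Cre and floxed-tdTomato, so both groups share the same reporters and Cre, and their background was a mixture of CD1, C57/B6 and 129S1. Cntn2-EGFP is a green reporter for Contactin 2, a Purkinje cell surface protein, and a-MHC-Cre acts in heart muscle cells, where it switches on the red tdTomato. The design names 4 hearts as the source, and arrays with the same number are treated here as the 2 cell types of 1 heart.

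Metallothioneins are small cysteine-rich proteins that bind zinc and copper and buffer oxidative stress, and their genes are switched on by the metal sensor MTF1 through metal response elements and also by glucocorticoids. Glucocorticoids, the steroid hormones of the adrenal cortex, act through the glucocorticoid receptor, which binds DNA and raises the transcription of a set of target genes in most tissues, the heart included. Their circulating level follows the time of day and rises with stress.

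Cell identity was checked against marker genes. The counts are genes called by limma with the heart as a block (Benjamini-Hochberg adjusted p under 0.05). Of all 12318 tested genes, 9.64% rose and 7.48% fell in Purkinje cells. Of 7 tested Purkinje markers, 6 rose in Purkinje cells, and their summed signal was 1786 to 6724 on the Purkinje arrays and 443 to 520 on the ventricular arrays. Cntn2, the gene of the Cntn2-EGFP reporter, is among these markers, so its rise is not a check independent of that reporter. Its signal was 222.3, 800.1, 1255.9 and 1185.1 on the Purkinje arrays and is part of the sum. By heart, the summed signal on the Purkinje arrays was 1786, 3960, 6724 and 6715, so heart 1 had the lowest summed signal and heart 2 the next. Both were well above every ventricular array. The mean log2 signal of the markers, relative to the 8-array mean of each gene, was 0.68, 1.89, 2.17 and 2.21. By that measure heart 2 was close to hearts 3 and 4. Among the markers, Tbx3 went the other way (258.3, 258.4, 126.1 and 126.7) and Irx3 varied little (342.0, 416.6, 408.8 and 364.9). Heart muscle markers were bright in both cell types, with a summed signal of 59176 to 61904 in Purkinje cells and 57572 to 73302 in ventricular myocytes. Endothelial markers were also present and were higher in Purkinje cells for 10 of 10 tested genes, at a summed signal of 5977 to 13927 in Purkinje cells and 3505 to 9877 in ventricular myocytes. Fibroblast markers rose for 6 of 9 tested genes, with a summed signal of 2671 to 4100 in Purkinje cells and 1384 to 2600 in ventricular myocytes. Smooth muscle and pericyte markers rose for 7 of 8, with 7340 to 13380 in Purkinje cells and 4636 to 8039 in ventricular myocytes. Macrophage markers rose for 2 of 6, with 501 to 1483 in Purkinje cells and 428 to 715 in ventricular myocytes, and the leukocyte genes Ptprc, Adgre1 and Cd14 lay below the limit for testing. Without the heart block, 6 Purkinje, 2 endothelial, 2 fibroblast, 2 smooth muscle and pericyte and 0 macrophage markers rose. With each array centred on its median these counts were 6, 7, 4, 7 and 1. In such sorted fractions, fewer cells of a type and less RNA per cell cannot be told apart.

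The 2 metallothionein genes lie next to each other on chromosome 8, in GRCm38.p6 at chr8:94172618-94173567 for Mt2 and chr8:94178883-94180327 for Mt1, with 5315 bases between them. Mt3 and Mt4, their relatives, lie on the same chromosome, starting at positions 94152607 and 94137204. The start regions of Mt1 and Mt2 are shown because these 2 genes, by their brightest probe sets, had the most similar pattern over the arrays among the members. Within RefSeq windows of 250 bases before to 50 bases after an annotated start, the core of the metal response element was searched as TGCACNC or TGCGCNC on both strands. It was found 3 times in the Mt1 window and 4 times in the Mt2 window. At least 1 match was present in 25.7% of the 32851 windows in the table, at least 3 in 1.97% and at least 4 in 0.518%. Each stretch below is 30 bases from the forward strand, with the match in capitals; matches that begin with G are on the other strand.
Mt1, chr8:94179054-94179083: gcggtcccgctgTGCACACtggcgctccag
Mt1, chr8:94179079-94179108: tccagggagctcTGCACTCcgcccgaaaag
Mt1, chr8:94179097-94179126: ccgcccgaaaagTGCGCTCggctctgccaa
Mt2, chr8:94172383-94172412: cagcatcgcctcTGCACCCggcccctcggg
Mt2, chr8:94172478-94172507: tcgcagacccttTGCGCTCagctcctttgc
Mt2, chr8:94172556-94172585: tggggggagggcGTGTGCAggctctgtccc
Mt2, chr8:94172610-94172639: agaattcgggtcGTGCGCAggcccaggggc

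The glucocorticoid response element was searched in the same windows as AGAACA followed, after 3 bases, by TGTTCT. RefSeq windows were matched for 6 of the 7 members, 14 windows in all. The element was found in 1 of the 6 windows of Sgk1, and in 3 of all 32851 windows (0.00913%). It is shown because Sgk1 is used widely as a glucocorticoid target, with both 6-base arms and the spacer between them in capitals.
Sgk1, chr10:21993693-21993722: atgcggaaAGAACAGAATGTTCTcggagat
A match is a string of letters in a window, and no binding was measured here.

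Mt1, Mt2 and Zbtb16 differed more between hearts than between cell types, whereas Sgk1, Cdkn1a, Tsc22d3 and Fkbp5 were higher on average in Purkinje cells by more than the spread between hearts as the arrays were deposited. The first 3 genes kept this order under median centring and quantile normalization, as did Tsc22d3, whereas the others depended on the scaling. Mt1 kept it only narrowly with median centring (a difference of -0.68 against a heart spread of 0.69). With each array centred on its median the difference was below the heart spread for Sgk1 (0.71 against 0.80), Cdkn1a (0.70 against 0.96) and Fkbp5 (0.08 against 0.44), and after quantile normalization also for Fkbp5 (0.34 against 0.40; log2). Spread between hearts was taken as the SD of the 4 heart means, each the mean log2 signal of the Purkinje and the ventricular array of one heart, and was set against the absolute mean of the 4 paired differences. By this measure 3 of 7 members had the larger spread between hearts, as did 45.6% of the 12318 tested genes, so this count is close to the background. Counted by probe set, 8 of 16 had the larger spread between hearts. The split also depended on the measure. By sum of squares, hearts held more than the cell type for Sgk1 (54.8% against 38.4%), Cdkn1a (62.5% against 27.9%) and Fkbp5 (49.5% against 24.1%) too. The members were chosen on their heart spread, so its size beside all tested genes was set by that choice and is given as a description only. The heart means of the members spanned a median of 1.57 on the log2 scale, against 0.60 over all tested genes, and a median of 62.5% of the sum of squares over the 8 arrays lay between hearts, against 45.8% over all tested genes. The median difference of Purkinje minus ventricular signal was 0.49 for the members and 0.05 over all tested genes (log2).

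**Figure D1:**
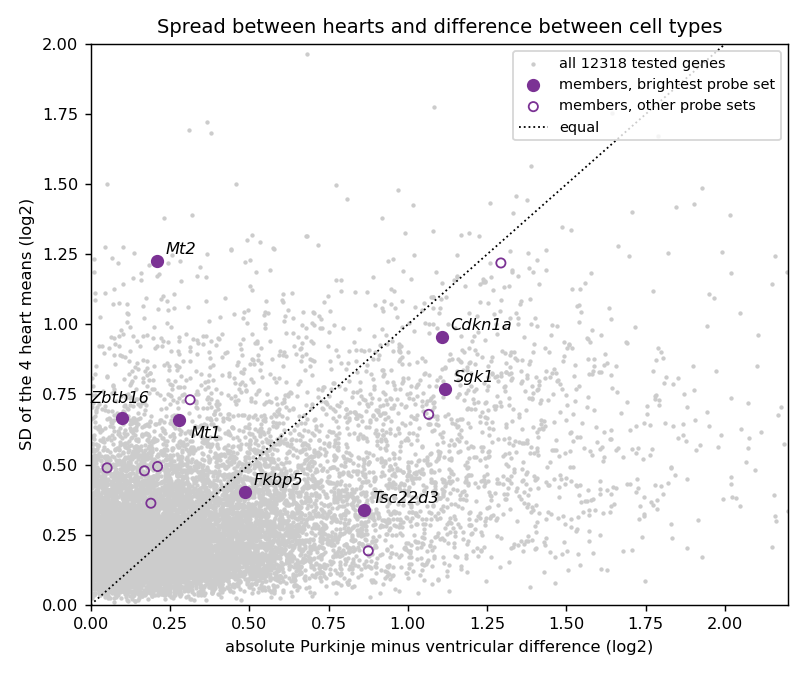
Spread between hearts against the difference between cell types. The x axis is the absolute Purkinje minus ventricular difference and the y axis the SD of the 4 heart means, both in log2 units; filled purple points are the 7 members by their brightest probe set, open circles their other probe sets above the limit, grey points all 12318 tested genes (79 lie beyond the axes), and the dotted line marks equality. Mt2, at 1.23, lies far above the line, Mt1 and Zbtb16 above it, and Tsc22d3, Sgk1, Cdkn1a and Fkbp5 below it.

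Mt2 had the widest range between hearts of the 7 members by their brightest probe sets. On probe set 1428942_at its signal was 2221.8, 857.2, 416.4 and 332.0 in Purkinje cells of hearts 1 to 4, and 2691.9, 857.0, 489.8 and 415.3 in ventricular myocytes of the same hearts. Heart 1 was highest and heart 4 lowest in both cell types, and the order of the 4 hearts was the same in both, which held for 1 of 7 members and for 9.38% of all tested genes. The mean signal was 957 ± 874 in Purkinje cells and 1114 ± 1070 in ventricular myocytes (SD, n = 4 each). The heart means spanned 2.72 on the log2 scale, a 6.59-fold range, with an SD of 1.23. This range exceeded those of 99.4% of all tested genes, a rank that the choice of the members on their heart spread favours. The paired difference was -0.21 ± 0.07 (log2, SE, n = 4 hearts), and it was -0.61 when each array was centred on its median. Hearts held 98.7% of the sum of squares, and the cell type 0.952%. Leaving out heart 1 lowered the SD of the heart means of Mt2 to 0.63, and hearts 3 and 4 taken alone gave 0.20.

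Mt1 followed the same division of the hearts with a smaller range on its bright probe set only. Its bright probe set, 1422557_s_at, had signals of 3190.2, 1869.5, 999.1 and 1306.7 in Purkinje cells and 3658.3, 2039.9, 1509.3 and 1500.9 in ventricular myocytes. Hearts 1 and 2 were above hearts 3 and 4 in both cell types, and the ventricular value was the higher in each of the 4 hearts, although the 2 groups overlapped. The mean was 1841 ± 969 in Purkinje cells and 2177 ± 1019 in ventricular myocytes (SD, n = 4 each). The paired difference was -0.28 ± 0.11 (log2, SE, n = 4 hearts) and -0.68 with each array centred on its median. The heart means spanned 1.48, or 2.78-fold, with an SD of 0.66 that fell to 0.34 without heart 1. A dimmer Mt1 probe set, 1451612_at, designed on another transcript record, gave another order: 144.3, 75.6, 164.5 and 231.7 in Purkinje cells and 141.3, 127.5, 189.9 and 194.4 in ventricular myocytes. On it heart 4 was highest and heart 2 lowest in both cell types. All arrays of hearts 1 and 2 lay below those of hearts 3 and 4, the reverse of the bright probe set. The 2 probe sets of Mt1 thus disagree on the order of the hearts. When the probe sets were averaged, the SD of the Mt1 heart means was 0.30.

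**Figure D2:**
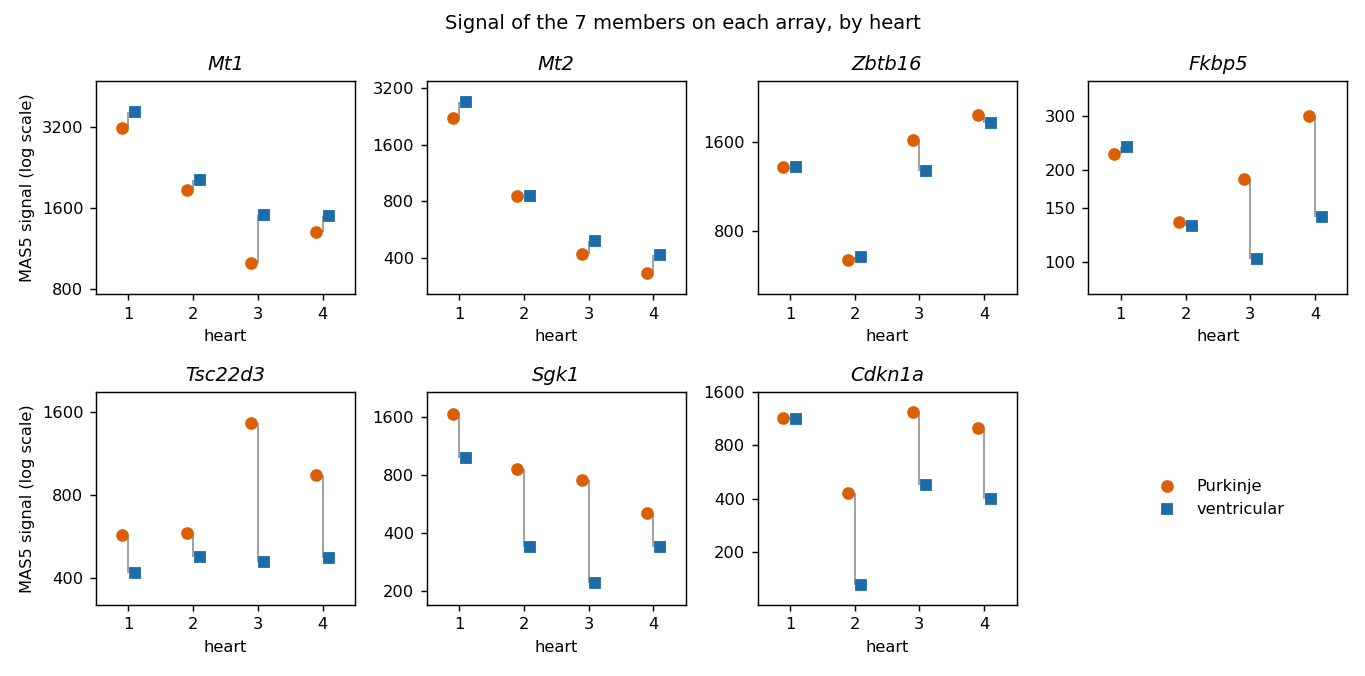
MAS5 signal of each member on the 8 arrays, by its brightest probe set. The x axis is the heart and the y axis the signal on a log scale that differs between panels; orange circles are Purkinje cells, blue squares ventricular myocytes, and a grey line joins the 2 cell types of a heart. Mt1, Mt2 and Zbtb16 move together in the 2 cell types from heart to heart, whereas Tsc22d3, Sgk1 and Cdkn1a are higher in Purkinje cells of every heart, Cdkn1a only by 0.02 on the log2 scale in heart 1.

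Zbtb16 encodes PLZF, a BTB zinc finger transcription repressor that glucocorticoids induce in many tissues. Its brightest probe set, 1439163_at, had signals of 1314.9, 637.3, 1622.5 and 1975.1 in Purkinje cells and 1316.4, 652.5, 1276.5 and 1855.6 in ventricular myocytes. Heart 2 was lowest and heart 4 highest in both cell types, and the Purkinje and ventricular values of hearts 1 and 2 were nearly equal. The mean was 1387 ± 568 in Purkinje cells and 1275 ± 492 in ventricular myocytes (SD, n = 4 each). The paired difference was 0.10 ± 0.09 (log2, SE, n = 4 hearts), and it was -0.30 when each array was centred on its median. Hearts held 97.6% of the sum of squares and their means spanned 1.57, or 2.97-fold, and leaving out heart 2 lowered their SD to 0.28, against 0.67 with all hearts. Probe set 1427638_at had 426.1, 257.8, 592.3 and 757.4 in Purkinje cells and 548.1, 163.7, 384.2 and 599.5 in ventricular myocytes. Probe set 1419874_x_at had 805.4, 427.1, 535.9 and 775.9 in Purkinje cells and 1066.6, 480.5, 553.7 and 904.5 in ventricular myocytes. Heart 2 was the lowest on all 3 probe sets in both cell types, while the highest was heart 4 on 2 of them and heart 1 on 1419874_x_at.

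Fkbp5 encodes FKBP51, a co-chaperone that lowers the affinity of the glucocorticoid receptor for its hormone and is itself induced by the receptor. Probe set 1416125_at had signals of 225.3, 135.4, 186.3 and 300.1 in Purkinje cells and 237.6, 131.0, 101.9 and 139.9 in ventricular myocytes. The cell types were close in hearts 1 and 2 and apart in hearts 3 and 4, where Purkinje cells were higher, and the groups overlapped. The mean was 212 ± 69.4 in Purkinje cells and 153 ± 58.9 in ventricular myocytes (SD, n = 4 each). The difference within hearts 1 to 4 was -0.08, 0.05, 0.87 and 1.10, with a mean of 0.49 ± 0.29 (log2, SE, n = 4 hearts) and 0.67 without heart 1. The small differences fall in hearts 1 and 2, whose Purkinje arrays have the lower summed Purkinje marker signal given above. By mean log2 marker signal heart 2 was close to hearts 3 and 4, and the part of this was not tested. A dimmer probe set for the same transcript record, 1448231_at, had 62.7, 24.6, 64.9 and 54.6 in Purkinje cells and 70.8, 39.2, 55.3 and 41.1 in ventricular myocytes, with a mean difference of -0.05 ± 0.24. The 2 probe sets of Fkbp5 thus agree that heart 2 was lowest in Purkinje cells and disagree on the mean difference between cell types. The third, 1447736_at, lay between 0.9 and 13.5 in Purkinje cells and between 1.3 and 3.1 in ventricular myocytes.

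Tsc22d3 encodes GILZ, a leucine zipper protein through which glucocorticoids restrain inflammatory signalling. It was the 1 member of 7 whose cell types did not overlap by the brightest probe set, where 12.7% of all tested genes did not overlap. Probe set 1420772_a_at had 574.0, 583.8, 1462.9 and 946.7 in Purkinje cells and 415.4, 476.0, 456.0 and 473.8 in ventricular myocytes. The ventricular values were nearly level over the hearts, with a highest over lowest ratio of 1.15, whereas the Purkinje values differed 2.55-fold with hearts 3 and 4 highest. The mean was 892 ± 418 in Purkinje cells and 455 ± 28.1 in ventricular myocytes (SD, n = 4 each), and the paired difference was 0.86 ± 0.31 (log2, SE, n = 4 hearts). Within hearts 1 to 4 it was 0.47, 0.29, 1.68 and 1.00, and without heart 1 its mean was 0.99. On this probe set the difference was smaller in hearts 1 and 2, those with the lower summed Purkinje marker signal. By mean log2 marker signal heart 2 was close to hearts 3 and 4, and the part of this was not tested. Probe set 1425281_a_at had 260.5, 401.6, 520.3 and 431.8 in Purkinje cells and 225.8, 198.7, 209.5 and 220.9 in ventricular myocytes. This second probe set also showed no overlap, a level ventricular signal and a paired difference of 0.88 ± 0.24, and the count of probe sets without overlap was 2 of 16. Within hearts 1 to 4 its difference was 0.21, 1.02, 1.31 and 0.97, smallest in heart 1, with heart 2 above heart 4. On the other two the groups overlapped. The paired difference was 0.19 ± 0.11 on 1425557_x_at. There all arrays of hearts 1 and 2 lay above those of hearts 3 and 4, narrowly for Purkinje cells of hearts 1 and 3 (159.1 and 158.7). Heart 4 was lowest in both cell types. On the dim 1444365_at the paired difference was 1.07 ± 0.22. Purkinje cells were higher there in 4 of 4 hearts, and the difference was largest in heart 2 (1.54).

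Sgk1 encodes a serum and glucocorticoid regulated kinase that acts on ion channels and transporters. Probe set 1416041_at had 1664.3, 855.8, 757.2 and 511.6 in Purkinje cells and 975.5, 339.2, 221.2 and 340.6 in ventricular myocytes. Purkinje cells were higher in 4 of 4 hearts, and heart 1 was highest in both cell types, so that ventricular myocytes of heart 1 exceeded Purkinje cells of hearts 2, 3 and 4. The mean was 947 ± 499 in Purkinje cells and 469 ± 342 in ventricular myocytes (SD, n = 4 each). The paired difference was 1.12 ± 0.27 (log2, SE, n = 4 hearts), a 2.17-fold higher signal, and it was 0.77, 1.34, 1.78 and 0.59 within hearts 1 to 4. It was smallest in heart 4, which has a higher summed Purkinje marker signal than hearts 1 and 2. Hearts held 54.8% of the sum of squares and the cell type 38.4%. The SD of the heart means was 0.77, and it was 0.22 without heart 1.

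Cdkn1a encodes p21, an inhibitor of cyclin-dependent kinases that is a p53 target and also responds to glucocorticoids. Probe set 1424638_at had 1134.5, 431.3, 1231.2 and 1005.7 in Purkinje cells and 1121.3, 131.5, 477.6 and 400.7 in ventricular myocytes. Heart 2 was lowest in both cell types, and the cell types were equal in heart 1 and apart in the other hearts. The mean was 951 ± 358 in Purkinje cells and 533 ± 419 in ventricular myocytes (SD, n = 4 each). The difference within hearts 1 to 4 was 0.02, 1.71, 1.37 and 1.33, with a mean of 1.11 ± 0.37 (log2, SE, n = 4 hearts) and of 1.47 without heart 1. Heart 1, where the cell types were equal, has the lowest summed Purkinje marker signal of the Purkinje arrays. Heart 2, with the next lowest, had the largest difference on this probe set, and the part of this was not tested. The second probe set, 1421679_a_at, had 1055.5, 225.0, 1029.1 and 1027.9 in Purkinje cells and 934.2, 83.4, 352.8 and 253.3 in ventricular myocytes. It repeated the low values of heart 2 and the near equality in heart 1, with a mean difference of 1.29 ± 0.39. Within hearts 1 to 4 its difference was 0.18, 1.43, 1.54 and 2.02, so heart 4 and not heart 2 had the largest. The heart means spanned 2.24 on the brightest probe set, or 4.74-fold, and without heart 2 their SD was 0.42, against 0.96 with all hearts.

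The members did not share one order of hearts. Over the 8 arrays, the log2 signals of Mt1 and Mt2 had a Pearson correlation of 0.96, those of Fkbp5 and Cdkn1a 0.71, of Mt2 and Sgk1 0.66 and of Zbtb16 and Cdkn1a 0.65, while Mt1 and Tsc22d3 had -0.67. These use the brightest probe set of each gene and are descriptions over arrays that come in pairs from the same hearts. Heart 1 gave the highest heart mean of Mt1, Mt2, Fkbp5, Sgk1 and Cdkn1a, heart 4 that of Zbtb16 and heart 3 that of Tsc22d3. Heart 2 gave the lowest heart mean of Zbtb16, Fkbp5 and Cdkn1a. By their brightest probe sets, 2 of 7 members, Mt1 and Mt2, kept the pairs of hearts apart. All 4 arrays of hearts 1 and 2 lay above all 4 arrays of hearts 3 and 4. No member had the opposite by its brightest probe set, but the dimmer Mt1 probe set, 1451612_at, did. Of the 12318 tested genes, 733 had the first order and 705 the opposite. The ratio of the 3′ to the 5′ Gapdh probe set, a sign of RNA length, moved with the same division of hearts. It was 1.24, 1.28, 1.64 and 1.72 in Purkinje cells of hearts 1 to 4, and 1.23, 1.20, 1.51 and 1.51 in ventricular myocytes. The same ratio for actin did not divide the hearts in this way. It was 0.76, 0.67, 0.78 and 0.71 in Purkinje cells and 0.79, 0.82, 0.71 and 0.79 in ventricular myocytes. The summed signal of the 10 endothelial markers was also higher in hearts 1 and 2 within each cell type, at 13927, 12515, 8156 and 5977 in Purkinje cells and 9877, 5274, 3505 and 3660 in ventricular myocytes. The part of RNA length or of other cells in the heart differences was not tested.

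The genes most like Mt2 over the 8 arrays, outside the members and over all tested genes, were Chfr and Arhgef12 (both r = 0.97), 2510039O18Rik, Rgs19 and Egfbp2 (each r = 0.96). Those most like Fkbp5 were Npnt (r = 0.98), Trp53i13 (0.96), Hbegf (0.94), Tigd5 and Ino80dos (both 0.93). These are the highest of 12318 correlations over only 8 points that share hearts.

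Other glucocorticoid targets moved in both directions between the cell types. From a list of 40 known targets without the members, 39 were tested, 9 rose and 5 fell in Purkinje cells and 25 did not pass (limma with the heart as a block, Benjamini-Hochberg adjusted p under 0.05 over all tested genes). Over all 12318 tested genes 9.64% rose and 7.48% fell. The median difference of the list was 0.18, against 0.05 over all genes (log2). Among those that rose, Fam107a, an actin-binding stress response gene, had 227.6, 200.3, 181.3 and 137.3 in Purkinje cells and 94.8, 62.5, 25.8 and 17.7 in ventricular myocytes, a difference of 2.18 ± 0.30 (SE, limma adjusted p = 0.000933). Fam107a was higher in Purkinje cells of 4 of 4 hearts and, by a fit without the heart block, was the 1 target of the list that still passed (limma adjusted p = 0.0344). Cdkn1c, which encodes p57, a relative of p21, was higher by 1.85 ± 0.44 (limma adjusted p = 0.0145), and Il1r1, the interleukin 1 receptor, by 1.24 ± 0.38 (limma adjusted p = 0.0412). Cdkn1c had 84.9, 22.0, 9.2 and 30.5 in ventricular myocytes, of which the value of heart 3 lies below the limit of 19.9, so the size of its difference is uncertain. The same holds for Il1r1 and Fam107a, whose ventricular values of heart 4 were 7.9 and 17.7. Cdkn1c averaged 106 ± 43.8 in Purkinje cells and 36.7 ± 33.3 in ventricular myocytes, and Il1r1 averaged 77.5 ± 20.6 in Purkinje cells and 42.5 ± 29.7 in ventricular myocytes (SD, n = 4 each). Il1r1 no longer passed after quantile normalization (limma adjusted p = 0.116).

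Ptgds, which encodes prostaglandin D synthase, fell by 1.19 on the log2 scale (SE 0.29, limma adjusted p = 0.0163). Its signal was 5603.1, 4704.8, 1224.2 and 921.0 in Purkinje cells and 6164.7, 5861.5, 4826.4 and 4614.8 in ventricular myocytes. Most of the difference thus lay in hearts 3 and 4, those with the higher summed Purkinje marker signal, and the part of this was not tested. Named after their values were seen, the others that rose were Errfi1, Sult1a1, Cebpd, Nfkbia, Zfp36 and Dusp1, with differences of 0.84, 0.78, 0.77, 0.52, 0.37 and 0.30. Those that fell with Ptgds were Klf15, Glul, Trim63 and Ppp1r3c, with differences of -0.71, -0.68, -0.60 and -0.57; Klf15 is a transcription factor of muscle metabolism, Glul glutamine synthetase and Trim63 a muscle ubiquitin ligase. These smaller differences depended on the scaling, because centring each array on its median moved the median of all genes to -0.35. Relative to that centring 2 targets rose and 12 fell, and Dusp1 (-0.10) and Zfp36 (-0.04) turned sign. Quantile normalization also gave 9 higher and 5 lower, but Il1r1 and Cebpd (limma adjusted p = 0.056) lost their call, and Rhob and Tgm2 (limma adjusted p = 0.0288 and 0.0158), named after their values were seen, gained one. Without the block the counts were 1 higher and 0 lower, and with the block the list had 4 calls in all without heart 3 and 7 without heart 2 or heart 4. Markers of endothelial cells, fibroblasts and smooth muscle rose in Purkinje cells beside these targets, at the summed signals given above, and their part was not tested.

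**Figure D3:**
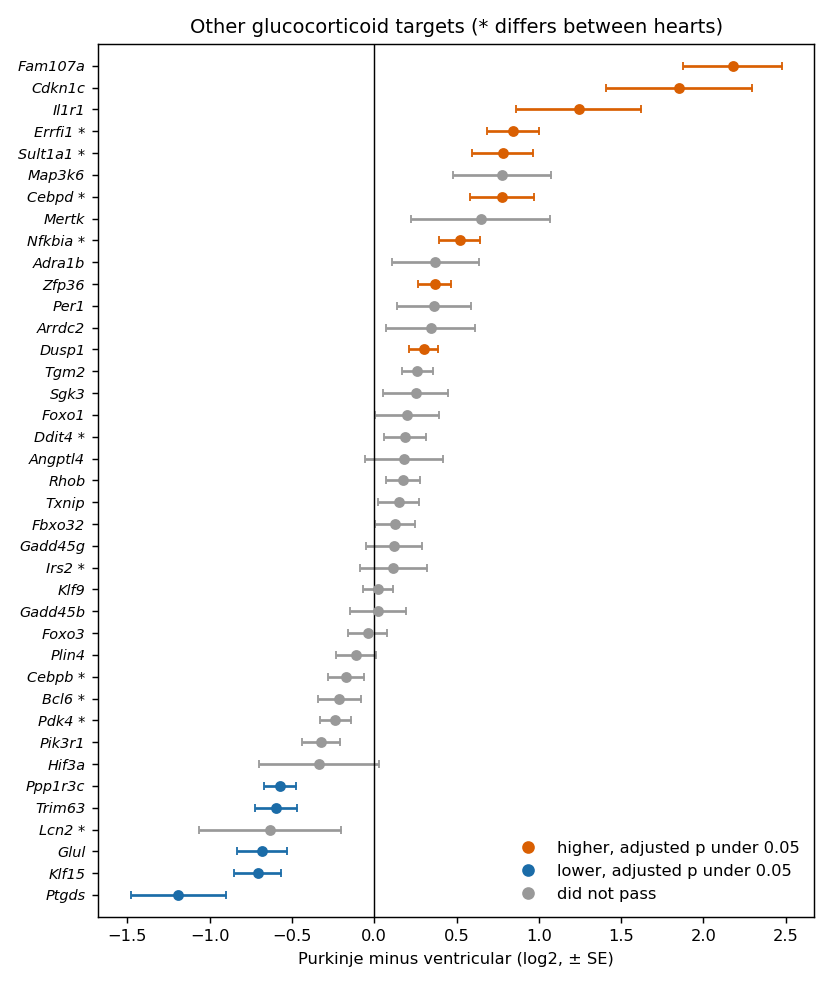
Purkinje minus ventricular difference of the 39 tested glucocorticoid targets outside the members. The x axis is the log2 difference with its SE from limma with the heart as a block (4 hearts); orange points rose and blue points fell in Purkinje cells at an adjusted p under 0.05, grey points did not pass, and an asterisk marks the genes that differ between hearts. The 9 that rose reach 2.18 for Fam107a, and the 5 that fell reach -1.19 for Ptgds.

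Between hearts, 10 of the 39 targets differed (moderated F-test of the heart in the same limma fit, adjusted over all genes), where 7.55% of all tested genes did. Ddit4, a stress-induced inhibitor of mTORC1, had 1014.3, 1395.2, 3207.4 and 2082.6 in Purkinje cells and 929.7, 852.2, 3375.9 and 2097.8 in ventricular myocytes, with hearts 3 and 4 above hearts 1 and 2 in both (limma adjusted p = 0.000749). Lcn2, the acute phase protein lipocalin 2, had 108.8, 189.5, 20.3 and 2.3 in Purkinje cells and 108.3, 183.9, 23.0 and 12.2 in ventricular myocytes, with hearts 1 and 2 above hearts 3 and 4 (limma adjusted p = 0.00173). The Lcn2 values of heart 4 lie below the limit for testing, and those of heart 3 lie just above it. The size of the Lcn2 heart spread is thus uncertain. Ddit4 and Lcn2 are both targets and took opposite directions over the hearts. Cebpb and Cebpd, 2 related transcription factors, also did so. Cebpb had 663.5, 471.2, 960.5 and 1144.8 in Purkinje cells and 671.8, 564.0, 1138.8 and 1276.8 in ventricular myocytes (limma adjusted p = 0.00218). Cebpd had 409.6, 228.0, 143.0 and 133.1 in Purkinje cells and 349.7, 112.7, 79.7 and 66.1 in ventricular myocytes (limma adjusted p = 0.00365). Heart 1 was thus the highest for Cebpd, and heart 4 for Cebpb, in both cell types.

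Named after their values were seen, the remaining targets that differed between hearts were Nfkbia, Irs2, Errfi1, Sult1a1, Bcl6 and Pdk4. Of the 10, all arrays of hearts 1 and 2 lay above those of hearts 3 and 4 for 3 (Lcn2, Nfkbia and Sult1a1) and below them for 3 (Ddit4, Cebpb and Irs2), and the other 4 overlapped. The same separation of hearts 1 and 2 from hearts 3 and 4, in either direction, held for 11.7% of all tested genes and for 49.7% of the 930 genes called by heart. Calls between hearts rested on the variance model: without the trend of variance on signal, limma called 0 genes by heart (2143 at an unadjusted p under 0.05, against 2923 with the trend) and none of the 150 genes tested in the 8 comparison lists of this section passed by heart (53 at an unadjusted p under 0.05) or by cell type (51 at an unadjusted p under 0.05). With the trend and without heart 2, 5 of the targets differed between hearts.

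**Figure D4:**
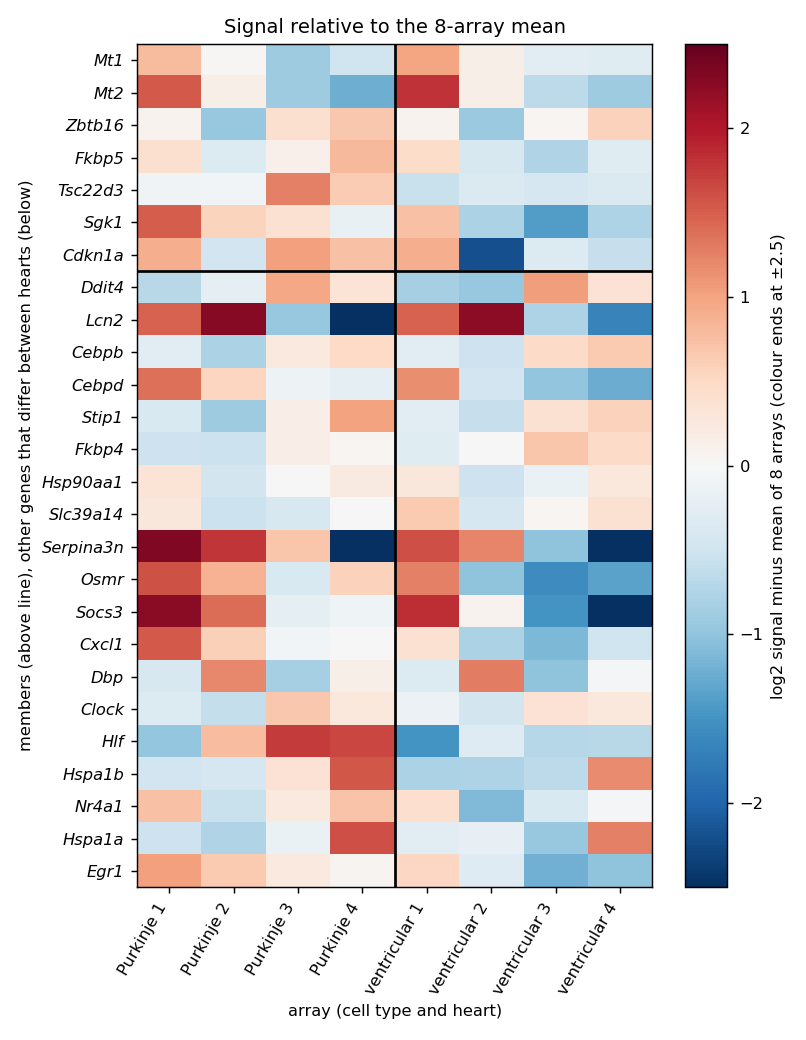
Log2 signal of the members (above the horizontal line) and of the other named genes that differ between hearts (below) on each array, relative to the gene's mean over 8 arrays. Columns are the Purkinje arrays of hearts 1 to 4 and then the ventricular arrays; red is above and blue below the mean, and the colour ends at 2.5 in either direction. Mt2 is highest in heart 1, Lcn2 and Serpina3n are high in hearts 1 and 2, Ddit4 and Cebpb in hearts 3 and 4, and Dbp in heart 2.

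Of the machinery of the receptor, 13 genes were tested: 1 rose and 1 fell in Purkinje cells, 11 did not pass, and 3 differed between hearts. Over all tested genes, 9.64% rose, 7.48% fell and 7.55% differed between hearts, and the counts by cell type are near these shares. Ncoa3, a coactivator of nuclear receptors, averaged 342 ± 41.5 in Purkinje cells and 210 ± 50.4 in ventricular myocytes (SD, n = 4 each), a difference of 0.72 ± 0.16 (limma adjusted p = 0.00883). Fkbp4, the co-chaperone FKBP52 that counteracts FKBP51, fell by 0.43 (SE 0.10), at 1682 ± 429 in Purkinje cells and 2290 ± 703 in ventricular myocytes (limma adjusted p = 0.0119), and it also differed between hearts (limma adjusted p = 0.00612). Fkbp4 and the co-chaperone Stip1 were higher in hearts 3 and 4, and the chaperone Hsp90aa1 was lowest in heart 2 (limma adjusted p between hearts 0.00499 for Stip1 and 0.00752 for Hsp90aa1). The receptor itself, Nr3c1, is named here after its values were seen. It averaged 707 ± 189 in Purkinje cells and 651 ± 87.1 in ventricular myocytes, a difference of 0.09 ± 0.12 (limma adjusted p = 0.678).

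Of 20 tested genes of the metal response and of zinc transport, limma called 2 higher in Purkinje cells and 0 lower (2 lower at an unadjusted p under 0.05), 18 did not pass, and 1 differed between hearts. These counts are near the shares over all tested genes (9.64% higher, 7.48% lower and 7.55% by heart). The zinc importers Slc39a8 and Slc39a10 were higher by 1.16 ± 0.37 (limma adjusted p = 0.0488) and 0.93 ± 0.23 (limma adjusted p = 0.0167), and neither passed after quantile normalization (limma adjusted p = 0.128 and 0.0748). The importer Slc39a14 differed between hearts (limma adjusted p = 0.0221), with 611.4, 345.4, 380.2 and 495.4 in Purkinje cells and 784.3, 373.0, 518.1 and 647.6 in ventricular myocytes. Slc39a14 was highest in heart 1, as Mt2 and the bright Mt1 probe set were, and lowest in heart 2, as those were not. Among genes named after their values were seen, Mtf1, the metal sensor, averaged 245 ± 85.0 in Purkinje cells and 241 ± 58.9 in ventricular myocytes (difference -0.01 ± 0.16, limma adjusted p = 0.968). Mt3 averaged 51.5 ± 11.7 in Purkinje cells and 45.2 ± 8.91 in ventricular myocytes (difference 0.18 ± 0.31, limma adjusted p = 0.74), and Mt4 lay below the limit.

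For Cdkn1a, the comparison list held p53 targets and other cell cycle genes. Of 19 tested, 4 rose and 3 fell in Purkinje cells, 12 did not pass, and limma called 0 between hearts (9 at an unadjusted p under 0.05). The shares over all tested genes were 9.64% higher, 7.48% lower and 7.55% by heart. The 4 that rose were Phlda3, an inhibitor of Akt signalling (1.20 ± 0.26, limma adjusted p = 0.00978), the cyclin Ccnd1 (1.06 ± 0.18, limma adjusted p = 0.00314), Zmat3 (0.92 ± 0.28, limma adjusted p = 0.0403) and the kinase Plk2 (0.86 ± 0.21, limma adjusted p = 0.0148). Zmat3 lost its call after quantile normalization and with median centring (limma adjusted p = 0.17 and 0.171), and Plk2 with median centring (limma adjusted p = 0.104). Ccnd1 had a mean signal of 353 ± 79.1 in Purkinje cells and 178 ± 82.5 in ventricular myocytes (SD, n = 4 each). Named after their values were seen, Aen (-0.73 ± 0.16), Sesn1 (-0.58 ± 0.10) and Gadd45a (-0.53 ± 0.15) fell (limma adjusted p = 0.00837, 0.00314 and 0.035). The p53 target Mdm2, also named after its values were seen, had a difference of 0.00 ± 0.11. Of the 14 tested relatives of Tsc22d3, Fkbp5 and Zbtb16, limma called 0 by cell type (0 at an unadjusted p under 0.05) and 0 by heart (1 at an unadjusted p under 0.05). The differences of Zbtb32 and Fkbp7 were 0.35 ± 0.32 and 0.26 ± 0.14, the largest in size.

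Acute phase and cytokine response genes, whose cytokine induction glucocorticoids modify, had the widest range between hearts of the 8 comparison lists, with a median span of heart means of 1.56. The immediate early genes came next at 1.42. Several of the acute phase genes have values below the limit of 19.9, which can widen a span on the log2 scale. Of 14 tested, limma called 5 higher in Purkinje cells and 0 lower (1 lower at an unadjusted p under 0.05), 9 did not pass, and 4 differed between hearts, where 9.64% of all tested genes rose, 7.48% fell and 7.55% differed between hearts. Socs3, the feedback inhibitor of cytokine signalling, had 190.6, 105.6, 33.9 and 37.1 in Purkinje cells and 144.8, 42.7, 14.3 and 3.0 in ventricular myocytes, and differed by heart (limma adjusted p = 0.0105). By cell type its adjusted p was 0.03 with limma and 0.072 after quantile normalization. The size of this difference is not given, since the ventricular values of hearts 3 and 4 lie below the limit of 19.9. Serpina3n, a secreted protease inhibitor, had 111.1, 76.6, 35.7 and 3.6 in Purkinje cells and 67.7, 51.5, 11.1 and 1.4 in ventricular myocytes (limma adjusted p between hearts = 0.00169). Its values of heart 4 and of ventricular myocytes of heart 3 lie below that limit, so the size of its heart spread is uncertain. Socs3 and Serpina3n were highest in heart 1 and higher in hearts 1 and 2 than in hearts 3 and 4, as Mt2 and the bright Mt1 probe set were. The receptors Il4ra (1.59 ± 0.41) and Osmr (1.32 ± 0.27) and the chemokine Cxcl1 (1.02 ± 0.19) were also higher in Purkinje cells (limma adjusted p = 0.0209, 0.00643 and 0.00381). Il4ra lost its call after quantile normalization (limma adjusted p = 0.0698). Its ventricular value of heart 3, 8.2, lies below the limit, so the size of its difference is uncertain.

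Among 15 tested clock genes, 1 rose and 1 fell in Purkinje cells and 3 differed between hearts, where 9.64% of all tested genes rose, 7.48% fell and 7.55% differed between hearts. Dbp, a clock output factor with a strong daily rhythm, had 373.5, 1133.4, 276.7 and 548.3 in Purkinje cells and 388.3, 1192.7, 246.0 and 481.5 in ventricular myocytes (limma adjusted p between hearts = 0.000577). Heart 2, the highest for Dbp in both cell types, was the lowest for Zbtb16 and Cdkn1a. Clock was higher in hearts 3 and 4 (limma adjusted p between hearts = 0.0154), Hlf rose in Purkinje cells (1.61 ± 0.29, limma adjusted p = 0.00352) and Bhlhe40 fell by 0.68 (limma adjusted p = 0.0133). Sampling times were not used here.

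Immediate early genes, which tissue handling and cell isolation induce, rose in Purkinje cells for 10 of 16 tested genes. Limma called 0 lower (0 at an unadjusted p under 0.05), 6 did not pass, and 8 differed between hearts, where 9.64% of all tested genes rose, 7.48% fell and 7.55% differed between hearts. Klf4 had 1278.0, 1200.9, 651.6 and 481.2 in Purkinje cells and 937.2, 244.2, 153.3 and 235.5 in ventricular myocytes (1.47 ± 0.25, limma adjusted p = 0.00271). Klf4 was higher in Purkinje cells of 4 of 4 hearts and highest in heart 1 in both cell types, as Sgk1 was. Egr3 (1.64 ± 0.39), Egr2 (1.35 ± 0.34) and Fosb (1.02 ± 0.28) were higher as well (limma adjusted p = 0.0152, 0.0183 and 0.026). The ventricular values of heart 4 for Egr3 and Egr2 (9.5 and 15.3) lie below the limit for testing. Another ventricular value of Egr3 (16.6) lies below it too. The sizes of the Egr3 and Egr2 differences are thus uncertain. Egr2 and Fosb lost their call after quantile normalization (limma adjusted p = 0.0536 and 0.0945), and Fosb with median centring too (limma adjusted p = 0.0895). Egr1 and Nr4a1 differed between hearts (limma adjusted p = 0.00527 and 0.00465), as did the heat shock genes Hspa1b and Hspa1a (limma adjusted p = 0.00212 and 0.00482), which were highest in heart 4.

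The counts of the other 7 lists by cell type also depended on the block and the scaling. Without the heart block, Fam107a and Phlda3 (limma adjusted p = 0.043) were the genes of the 8 lists that still passed. Centring each array on its median gave 0 higher and 3 lower for the receptor machinery, 0 and 5 for the metal response, 2 and 6 for the p53 targets, 0 and 3 for the relatives, 5 and 1 for the acute phase genes, 1 and 4 for the clock genes, and 5 and 1 for the immediate early genes. Quantile normalization left 3 acute phase genes and 8 immediate early genes higher, with 0 lower in each, and no gene of the metal response in either direction.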

How the data were processed

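Per the labels' protocols, RNA of sorted cells was isolated with PicoPure, amplified with the Ovation Pico WTA system and hybridised to biotin-labelled Affymetrix arrays. The authors deposited MAS5 signal intensity (per the submitters' processing notes, with no version), scaled so that the trimmed mean of every array is about 150.0. The authors' deposited ratio of means and unadjusted p-value were not used for any result here. The array number of 4 per cell type limits the precision. Intensities were set to log2 here, with 0 replaced by 0.1 (10 values), and no further normalization was applied. Probe sets were named by the platform annotation: 34958 had 1 symbol, 932 several and 9211 none. A gene is represented by its brightest probe set and tested above the 40th percentile. Tests used limma 3.58.1 in R 4.3.3 with cell type and heart, a variance trend and Benjamini-Hochberg adjustment at 0.05. Scripts were tested on simulated data.

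Members and lists were chosen with earlier results of these data known. From each comparison list, up to 4 called genes with the largest cell type difference and up to 4 with the largest heart F were named, or 2 where none was called, and the 5 genes most correlated with Mt2 and with Fkbp5. The design names 4 hearts, and deviations of same-numbered arrays from their group means correlated at 0.38, 0.23, 0.27 and 0.27, so the heart is a block. The margin over another number was small (Purkinje 2 with ventricular 1 had 0.20, 3 with 4 had 0.21 and 4 with 3 had 0.22), and hearts 1 and 2 correlated negatively with hearts 3 and 4. Taking deviations from group means forces some correlations to be negative, so a negative sign is no result in itself. Alternatives covered the block, scaling, filter, pseudocount, probe set averaging, variance model, single hearts and pairs of hearts.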

Additional observations from a re-analysis of the deposited data

Results flagged for a closer look

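In 2 of the 32 groups of 4 arrays examined for the members, 1 array lay far from the other three on the log2 scale; chance flags about 1 in 20 such groups. The Cdkn1a probe set 1421679_a_at had a signal of 225 in Purkinje cells of heart 2, against 1027.9 to 1055.5 in the other hearts; heart 2 was lowest in ventricular myocytes too, at 83.4. The dim Fkbp5 probe set 1447736_at had 3.1 in ventricular myocytes of heart 3, against 1.3 to 1.5 in the others, all below the limit for testing.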

How the results depend on the processing

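Of 189 member values under 14 alternatives, 174 moved by less than 1 SD and 15 by more, and the sign of a cell type difference turned 3 times: Zbtb16 with median centring (-0.30) and with hearts 1 and 2 alone (-0.02), and Fkbp5 with hearts 1 and 2 alone (-0.01). The members with more spread between hearts than between cell types numbered 3, but 6 with median centring, 5 with hearts 1 and 2 alone, 1 with hearts 3 and 4 alone, and 3 to 5 with a heart left out (5 without heart 3 or heart 4). The pairing mattered for the cell type calls: 2108 genes were called with the replicate block and 365 without it (239 higher and 126 lower), and 14 and 1 of the glucocorticoid targets. The genes called by cell type numbered 4508 with median centring (688 higher and 3820 lower, against 1187 higher and 921 lower), 139 with no variance trend, 363 with hearts 1 and 2 alone, and 811 to 2415 with a heart left out (811 without heart 2, 885 without heart 3, 1107 without heart 4). The targets called by cell type were 0 with no variance trend, 2 with hearts 1 and 2 alone and 4 to 16 with a heart left out. The genes called by heart, 930, were 489 with averaged probe sets, 0 with no variance trend, 80 with hearts 1 and 2 alone, 2 with hearts 3 and 4 alone, and 464 to 690 with a heart left out (464 without heart 2, 617 without heart 3). The targets called by heart, 10, were 5 with averaged probe sets, 0 with no variance trend, 1 with hearts 1 and 2 alone, 0 with hearts 3 and 4 alone, and 5 to 9 with a heart left out. The cause of these shifts was not tested, beyond the fewer arrays where hearts were left out. Probe sets near the limit, such as 1444365_at, are weakly separated from background.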
